A study of Mus musculus with 2 samples.

Results

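The genes described here encode the subunits of oxidative phosphorylation (OXPHOS), the mitochondrial process that makes ATP by passing electrons to oxygen. They were chosen by symbol alone: names starting with Nduf followed by a, b, c, s or v, with Uqcr, with Cox4 to Cox8, with Atp5 or with mt-, and the names Sdha to Sdhd, without pseudogenes. The rule took 106 of the 31053 genes in the expression matrix, 93 encoded in the nucleus and 13 encoded in mitochondrial DNA. The nuclear genes comprised 36 of complex I (NADH dehydrogenase), 4 of complex II (succinate dehydrogenase), 8 of complex III (cytochrome bc1), 19 of complex IV (cytochrome c oxidase), 16 of complex V (ATP synthase) and 10 assembly factors and relatives, Ndufaf1 to Ndufaf8, Atp5s and Cox7a2l. Cox8b, Cox8c and 1 of the 2 entries named Atp5o had no UMI in any cell, while 88 nuclear genes and all 13 mt- genes reached 50 unique molecules over the cells kept.

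Single cells came from tumours that Lewis lung carcinoma (LLC) cells had formed in C57BL/6 mice aged 8 to 12 weeks. One library held cells of Smad3-WT mice, and the other held cells of Smad3-KO mice, in which exon 8 of Smad3 was deleted and exon 7 disrupted; Smad3 is a transcription factor downstream of TGF-β. In each, CD11b+Ly6G+ cells, the surface phenotype of tumor-associated neutrophils (TANs), were sorted from 8 pooled tumours and profiled by 10x 5′ sequencing. The allele was that of the host, while the inoculated LLC cells were of the same line in both. Each genotype was 1 pool in 1 library, so genotype and library cannot be told apart and no test between genotypes was possible. Intervals below are exact 95% intervals that cover counting error only.

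Complexes I to IV pass electrons from NADH and succinate to oxygen and, apart from complex II, pump protons, and complex V uses the proton gradient to make ATP. Mitochondrial DNA supplies core proteins of complexes I, III, IV and V, and all other subunits are made from nuclear genes and imported. Mature neutrophils are known as cells with few mitochondria that draw mainly on glycolysis, while macrophages, lymphocytes and tumour cells hold more.

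Promoter windows of 3 complex IV genes are shown because these genes stood at different places in the comparisons described here. Cox6a1, a ubiquitous subunit, was the lowest of the nuclear genes counted in Smad3-KO relative to Smad3-WT neutrophil-like cells. Cox8a made up at least as large a share of the RNA in Smad3-WT neutrophil-like cells as in macrophage-like cells. Cox7a1, a tissue-restricted subunit, had 146 UMIs in the Smad3-WT and 2 in the Smad3-KO library. Each window runs 5′ to 3′ on the gene's strand, from 250 bases before to 50 after the RefSeq start (GRCm38.p6), with capitals on a match to a searched motif on either strand.
Cox6a1 (chr5:115348909-115349208, minus strand, capitals NRF1): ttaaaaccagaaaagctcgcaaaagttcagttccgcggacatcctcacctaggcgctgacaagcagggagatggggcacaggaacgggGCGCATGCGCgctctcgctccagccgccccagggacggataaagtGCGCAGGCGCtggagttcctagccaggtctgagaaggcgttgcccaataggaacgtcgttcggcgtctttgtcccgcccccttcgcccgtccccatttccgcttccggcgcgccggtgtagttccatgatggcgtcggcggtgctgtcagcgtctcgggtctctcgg
Cox8a (chr19:7217567-7217866, minus strand, capitals ETS): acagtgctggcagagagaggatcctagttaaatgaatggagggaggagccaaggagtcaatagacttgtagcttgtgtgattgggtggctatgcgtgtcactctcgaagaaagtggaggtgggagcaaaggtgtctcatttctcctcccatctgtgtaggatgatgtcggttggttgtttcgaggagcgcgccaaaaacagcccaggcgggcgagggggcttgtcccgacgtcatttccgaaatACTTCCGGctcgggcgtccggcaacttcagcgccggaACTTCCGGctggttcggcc
Cox7a1 (chr7:30183921-30184220, plus strand, capitals hypoxia response element): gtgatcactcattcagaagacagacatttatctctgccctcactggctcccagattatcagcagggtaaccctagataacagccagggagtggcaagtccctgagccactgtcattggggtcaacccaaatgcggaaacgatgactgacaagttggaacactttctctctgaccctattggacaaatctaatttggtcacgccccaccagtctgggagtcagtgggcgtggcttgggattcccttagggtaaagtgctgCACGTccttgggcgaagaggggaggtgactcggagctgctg
The NRF1 motif, GCGCA and GCGC with any base between, is that of nuclear respiratory factor 1 and matched at 2 places in the Cox6a1 window. The ETS motif CCGGAAGT, bound by GABPA and its relatives, matched at 2 places in the Cox8a window, and the hypoxia response core ACGTG matched at 1 place in that of Cox7a1.

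RefSeq entries were matched for 92 of the 93 nuclear genes, and 76 of them had a promoter window, 81 windows in all. NRF1 letters stood in 24.7% of these windows against 4.60% of all 32851 windows, YY1 letters (AAGATGGCG) in 9.88% against 1.40%, ERRalpha letters (TCAAGGTCA) in 2.47% against 0.423%, ETS letters in 6.17% against 3.89%, and the hypoxia core in 24.7% against 19.6%. Among the genes named below, Ndufb4, Sdha, Sdhd, Atp5g2, Atp5g3, Atp5k, Ndufa8, Ndufa11, Uqcrc1 and Cox6a1 held the NRF1 letters. A match is a description of the window and not a measured binding site.

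The Smad3-WT library held 4116 barcodes and 23951400 unique molecular identifiers (UMIs), and the Smad3-KO library 2514 barcodes and 4214290 UMIs. After filtering, 3520 and 2433 cells remained with a median of 1318.5 and 1199 UMIs. The filter removed 189 Smad3-WT and 41 Smad3-KO cells for 10% or more mitochondrial UMIs. For this reason mt- levels of neutrophil-like and macrophage-like cells and mt- ratios are also given without that mitochondrial cap. Cells were grouped into classes by clustering without the OXPHOS genes, and 1855 Smad3-WT and 1094 Smad3-KO cells were neutrophil-like. The other classes were macrophage or monocyte-like (1124 and 177 cells), T or NK-like (62 and 464), dendritic-like (29 and 42), B or plasma-like (3 and 566) and a mixed class of fibroblast and LLC carcinoma cells (447 and 90), although the sort was for CD11b+Ly6G+ cells. Between the libraries, 73 barcode sequences were shared.

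In the Smad3-WT library, nuclear OXPHOS transcripts made up a smaller share of the RNA in neutrophil-like cells than in any other class. Their summed level was 9053 counts per 1000000 UMIs (CPM) in neutrophil-like cells (8910 to 9197), against 19114 CPM in dendritic-like, 20645 in fibroblast-like, 22153 in macrophage-like, 24087 in LLC carcinoma-like and 24912 in T or NK-like cells. The Smad3-KO library had the same lowest class, with 5055 CPM in neutrophil-like cells (4935 to 5176), 16040 in B or plasma-like, 16171 in fibroblast-like, 18400 in T or NK-like, 20635 in dendritic-like, 20746 in macrophage-like and 21209 in LLC carcinoma-like cells. The intervals of the last 3 overlapped. CPM is a share of all transcripts, so CPM alone does not tell fewer OXPHOS molecules per cell from more molecules of other genes. Median depth was 742 UMIs in neutrophil-like and 3478.5 in macrophage-like cells of Smad3-WT, and 1016.5 and 2860 in Smad3-KO. The part of depth in these levels was not tested.

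**Figure D1:**
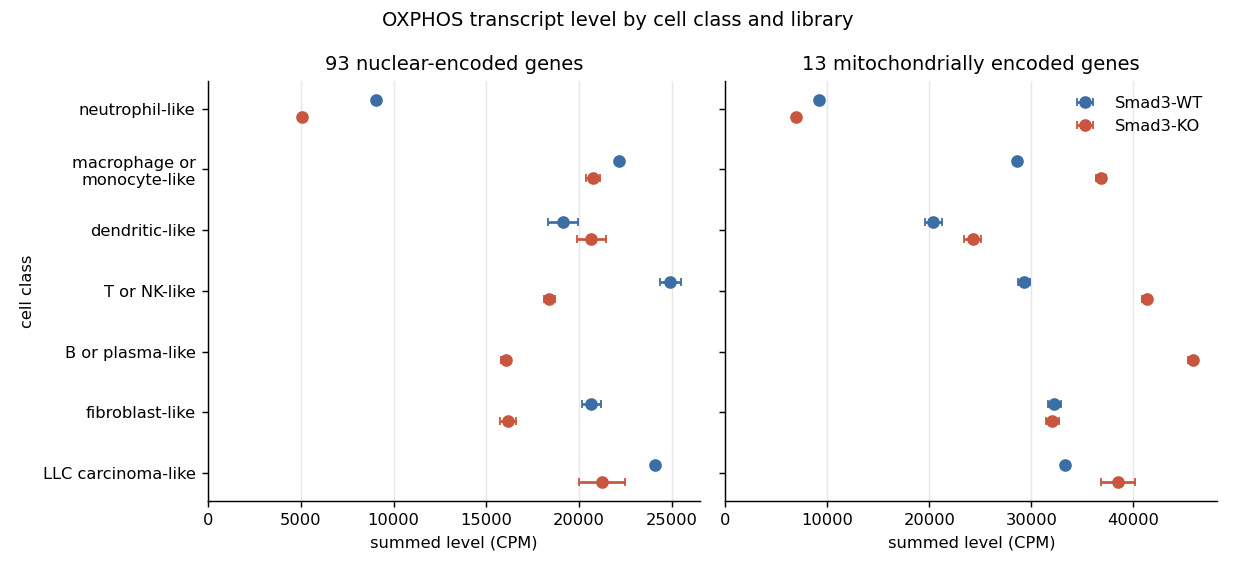
Summed level of the nuclear (left) and mt- (right) OXPHOS genes, in CPM, by cell class and library; points are summed values of 1 library each and bars are exact 95% Poisson intervals. Neutrophil-like cells lie lowest in both panels, at 9053 and 5055 CPM for the nuclear genes in Smad3-WT and Smad3-KO.

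The mt- transcripts were likewise lowest in neutrophil-like cells of both libraries. They summed to 9185 CPM in Smad3-WT neutrophil-like cells, 20385 in dendritic-like, 28574 in macrophage-like, 29274 in T or NK-like, 32247 in fibroblast-like and 33310 CPM in LLC carcinoma-like cells. In Smad3-KO they summed to 6940 CPM in neutrophil-like, 24245 in dendritic-like, 32055 in fibroblast-like, 36829 in macrophage-like, 38482 in LLC carcinoma-like, 41306 in T or NK-like and 45820 CPM in B or plasma-like cells. Without the mitochondrial cap, and with cells clustered anew, the mt- sum was 14535 CPM in Smad3-WT neutrophil-like and 33257.5 CPM in macrophage-like cells. In Smad3-KO it was 7597 and 41949 CPM without the cap. The classes were named from marker lists, so the marker levels describe the classes and do not check their names. The 10 neutrophil markers summed to 84798 CPM in Smad3-WT and 101397 CPM in Smad3-KO neutrophil-like cells. In these cells the 12 macrophage markers summed to 800 and 857 CPM.

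Between neutrophil-like and macrophage-like cells of the same library, nearly all nuclear OXPHOS genes were lower in the neutrophil-like cells. The summed level was 0.409 times that of macrophage-like cells in Smad3-WT (0.402 to 0.416) and 0.244 times in Smad3-KO (0.236 to 0.251). Among genes with at least 50 UMIs over both classes, 74 of 81 in Smad3-WT were lower by over 1.5-fold, where 55.4% of all genes were, and 1 was higher, where 17.4% of all genes were. In Smad3-KO all 72 were lower by over 1.5-fold, against 46.7% of all genes. Since UMIs of both classes were added for this limit, some genes entered through the macrophage-like class, where they were higher, such as Cox6a2 in Smad3-KO. The median ratio of the members was 0.297 in Smad3-WT and 0.195 in Smad3-KO, against 0.582 and 0.731 over all genes.

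A complex IV gene was an exception in Smad3-WT. Cox8a, a small subunit of cytochrome c oxidase, had 2069 UMIs in Smad3-WT neutrophil-like and 5216 in macrophage-like cells, which is 1218 and 1095 CPM and a ratio of 1.11 (1.06 to 1.17). Its level was close to that across the other Smad3-WT classes, at 1176 CPM in T or NK-like, 1092 in LLC carcinoma-like, 921 in dendritic-like and 899 in fibroblast-like cells. Thus the low level of the group in neutrophil-like cells did not extend to Cox8a in that library. In Smad3-KO, Cox8a stood at 582 CPM in neutrophil-like and 905 CPM in macrophage-like cells, a ratio of 0.643 (0.574 to 0.720).

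Most other members stood far lower. In Smad3-WT, Ndufa7, an accessory subunit of complex I, was close to parity with 346 against 370 CPM, a ratio of 0.94, and Ndufb9 followed with 0.83. At the other end were Ndufa9 with a ratio of 0.09, Ndufa11 with 0.12 and Ndufc2 with 0.13, all of complex I, and the c-ring genes of ATP synthase Atp5g2 with 0.14 and Atp5g3 with 0.15. In Smad3-KO, Ndufa7 stood at 0.65 and Ndufc2 at 0.05, and Cox6a2, described with the paralogs, was lowest at 0.0076 from 2 neutrophil-like and 111 macrophage-like UMIs. The 1 gene past 1.5-fold higher in Smad3-WT neutrophil-like cells was the assembly factor Ndufaf7, with a ratio of 1.54 from 28 neutrophil-like UMIs. Droplets also carry free RNA of other cells: the 12 macrophage markers had a median neutrophil-like to macrophage-like quotient of 0.0423 in Smad3-WT and 0.0528 in Smad3-KO, against 0.297 and 0.193 for the nuclear members. Single markers ranged up to 0.537 for Ly6c2 in Smad3-WT and 1.04 for Cd68 in Smad3-KO, and the part of free RNA in each gene was not tested.

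**Figure D2:**
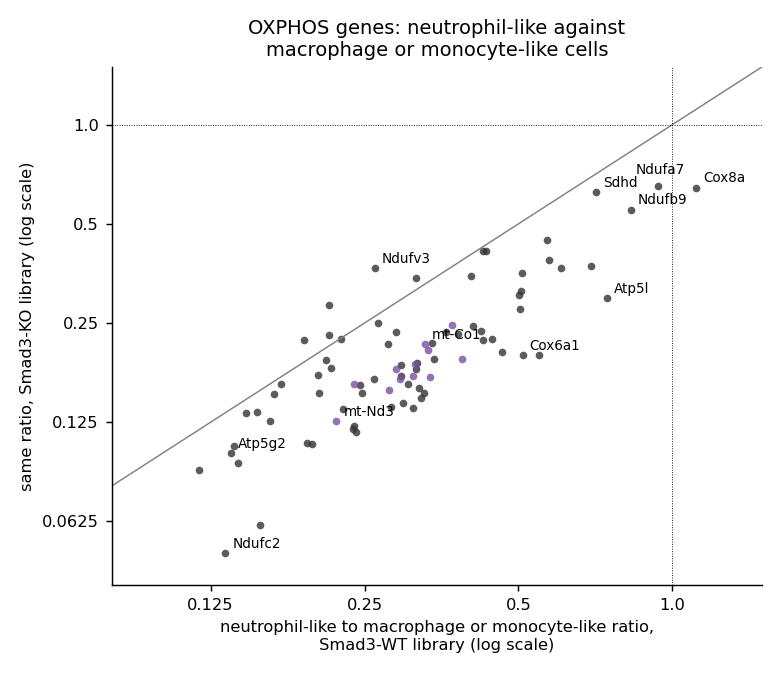
Neutrophil-like to macrophage-like ratio of each OXPHOS gene with at least 50 UMIs over both classes in each library, for Smad3-WT (x axis) and Smad3-KO (y axis), on log axes; grey points are nuclear and purple points mt- genes, the solid line marks equal ratios and dotted lines a ratio of 1. Most genes lie under the solid line and left of 1, and among these genes Cox8a alone lies right of 1, at 1.11 in Smad3-WT and 0.643 in Smad3-KO.

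The mt- genes were lower in neutrophil-like cells without exception among those with enough UMIs. Their sum was 0.321 times that of macrophage-like cells in Smad3-WT (0.316 to 0.327), with 13 of 13 genes lower by over 1.5-fold, and 0.188 times in Smad3-KO (0.184 to 0.193), with 12 of 12 lower, where 55.4% and 46.7% of all genes were. For the glycolysis genes the ratio differed by library. The glycolysis genes summed to 0.681 times the macrophage-like level in Smad3-WT and 2.39 times in Smad3-KO, where 16 of 17 were higher by over 1.5-fold, against 27.3% of all genes. Their level was 13353 CPM in Smad3-WT and 11525 CPM in Smad3-KO neutrophil-like cells. In macrophage-like cells it was 19606 and 4812 CPM, so the libraries differed more in that class. The citric acid cycle genes were lower by over 1.5-fold in 16 of 16 and in 6 of 6 cases, against the same 55.4% and 46.7%, and cytosolic ribosomal protein genes summed to 0.275 and 0.161 times.

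The same contrast was seen against lymphocytes and tumour cells. In Smad3-KO the nuclear sum of neutrophil-like cells was 0.275 times that of T or NK-like cells (0.267 to 0.283), with 69 of 72 genes lower by over 1.5-fold and none higher, where 50.3% and 30% of all genes were. Against B or plasma-like cells it was 0.315 times (0.306 to 0.324), with 69 of 73 lower and none higher, where 51.7% and 28.4% of all genes were. In Smad3-WT it was 0.376 times that of LLC carcinoma-like cells (0.370 to 0.382), with 76 of 84 lower and none higher, where 57.4% and 25.6% were. Cox8a was again near the top of each order, at 0.808 (0.724 to 0.902), 0.818 (0.737 to 0.909) and 1.11 (1.06 to 1.17). Sdhd stood at 1.23 (0.810 to 1.89) against T or NK-like cells, an interval that spans 1, and Atp5l, the g subunit of ATP synthase, at 1.13 (1.04 to 1.23) against LLC carcinoma-like cells. Complex V was lowest among the complexes against T or NK-like cells, at 0.223, and complex II highest, at 0.427.

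LLC carcinoma-like and macrophage-like cells of the Smad3-WT library had close nuclear sums, with a ratio of 1.09 (1.08 to 1.10), and 15 of 85 genes were higher and 8 lower by over 1.5-fold, where 32.1% and 31.6% of all genes were. The assembly factors and relatives, most of which help to build complex I, stood apart. They summed to 540 against 289 CPM, a ratio of 1.87 (1.75 to 1.995), with 7 of 10 higher. Ndufaf4 counted 368 UMIs in LLC carcinoma-like and 78 in macrophage-like cells, a ratio of 4.49 (3.51 to 5.81), and Ndufaf2 counted 253 and 66, a ratio of 3.65 (2.77 to 4.86). Atp5s stood at 5.77 (3.32 to 10.7) from 91 and 15 UMIs, while Ndufaf3 stood at 0.540 (0.402 to 0.721). Among mt- genes, mt-Nd3 was far below the others, at 38.8 against 193 CPM, a ratio of 0.201 (0.172 to 0.235), beside 1.17 for the mt- sum.

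Nuclear OXPHOS transcripts made up a smaller share of the RNA in Smad3-KO than in Smad3-WT neutrophil-like cells. The summed ratio was 0.558 (0.543 to 0.575), from 9053 and 5055 CPM. It compares shares and not molecules per cell. The median neutrophil-like cell of the knockout was deeper, with 1016.5 UMIs against 742, and the part of depth in this ratio was not tested. Of 67 nuclear genes with at least 50 UMIs, 42 were lower by over 1.5-fold, where 35.3% of all 4128 such genes were. None was higher by that fold, where 12.9% of all genes were. The median ratio was 0.581, against 0.790 over all genes. With 1 library per genotype these are differences between 2 libraries. A small neutrophil-like cluster seen at resolution 1.0, led by the interferon-response genes Ifit3b, Ifit3 and Ifit1, went the other way, with 6493 CPM in 307 Smad3-WT cells (6189 to 6807) and 10854 CPM in 19 Smad3-KO cells (9165 to 12765, from 146 nuclear UMIs). Another scaling by the median gene gave 0.657 and 29 genes past 1.5-fold in place of 42. The share over all genes also depends on the scaling and is not given here for it.

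**Figure D3:**
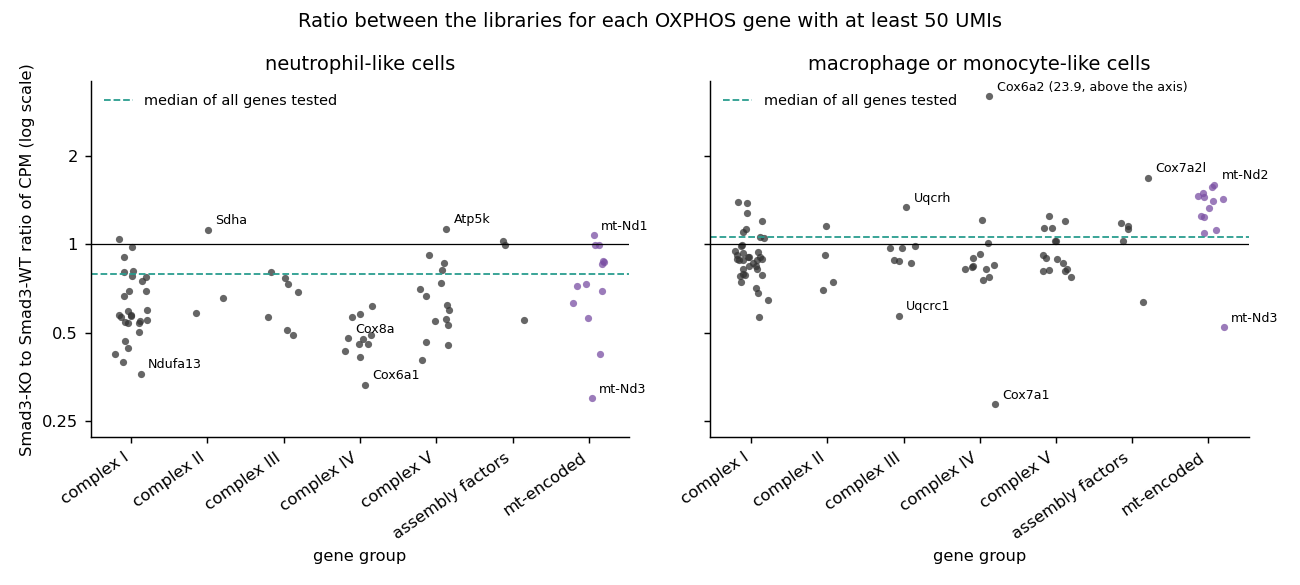
Smad3-KO to Smad3-WT ratio of CPM on a log axis for each OXPHOS gene with at least 50 UMIs, 1 point per gene, by complex, in neutrophil-like (left) and macrophage-like cells (right); the dashed line is the median of all genes, 0.790 and 1.06. In neutrophil-like cells all 11 complex IV genes lie under the dashed line, and in macrophage-like cells Cox6a2 (23.9) lies above the axis and is drawn at its edge.

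By complex, the summed ratio in neutrophil-like cells was 0.483 for complex IV (0.459 to 0.508), 0.576 for complex I (0.545 to 0.609), 0.580 for complex V (0.549 to 0.614), 0.683 for complex III (0.623 to 0.750) and 0.709 for complex II (0.585 to 0.858). All 11 complex IV genes were lower by over 1.5-fold, where 35.3% of all genes were. The count was 17 of 28 in complex I and 8 of 15 in complex V. It was 3 of 7 in complex III, near the share over all genes, and 2 of 3 in complex II. The intervals of complexes I and V overlapped, as did those of complexes II and III. Assembly factors and relatives stood at 0.789 (0.625 to 0.992), with 1 of 3 lower, also near the share over all genes.

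The largest differences were spread over complexes I, IV and V. Cox6a1, a complex IV subunit whose promoter is shown above, was seen 332 times in the Smad3-WT library and 87 times in the Smad3-KO library, or at 195 and 64.8 CPM, a ratio of 0.332 (0.259 to 0.421). Ndufa13 (GRIM-19), a complex I subunit, had 259 and 74 UMIs and a ratio of 0.362. Ndufb4, of the complex I membrane arm, had 83 and 26 UMIs and a ratio of 0.397. These genes were lower in the Smad3-KO library beyond their counting intervals. Atp5d, the delta subunit of the ATP synthase rotor, had 263 and 84 UMIs with a ratio of 0.404, and Cox7c had 304 and 99 UMIs with a ratio of 0.412 (0.325 to 0.519).

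Among the abundant genes, Cox8a counted 2069 UMIs against 781 in the knockout, a ratio of 0.478 (0.440 to 0.519). Cox4i1, the largest nuclear subunit of complex IV, had 678 and 302 UMIs, with a ratio of 0.564 (0.491 to 0.647). Atp5e, the epsilon subunit of ATP synthase, had 960 and 421 UMIs and a ratio of 0.555 (0.494 to 0.623). All 3 stood lower in Smad3-KO than their counting error spans. In complex I, Ndufa2 was at 0.502, Ndufa3 at 0.547 and Ndufa7 at 0.573. In complex III the ratio was 0.509 for Uqcr10, 0.686 for Uqcrq and 0.807 for Uqcrh, and in complex II it was 0.583 for Sdhb and 0.655 for Sdhd, a membrane anchor. The c-ring genes Atp5g2 and Atp5g3 stood at 0.920 (0.705 to 1.20) and 0.815 (0.630 to 1.05), and their intervals spanned 1.

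A few genes did not share the lower level. Atp5k, the e subunit of ATP synthase, counted 101 and 90 UMIs in the wild-type and knockout libraries, a ratio of 1.13 (0.84 to 1.51). Sdha, the flavoprotein of complex II, had 52 and 46 UMIs and a ratio of 1.12 (0.74 to 1.70). Ndufa8 stood at 1.04, Cox7a2l, a supercomplex factor, at 1.02 and Ndufaf7 at 0.995. Their intervals spanned 1, and those with few UMIs also span a difference of 1.5-fold.

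The 3 clusters 1, 3 and 8 made up the neutrophil-like class, and their share differed between libraries. Cluster 1 (Mmp9, Il1r2, G0s2 and Cxcr2 among its leading genes) held 1843 Smad3-WT and 225 Smad3-KO cells, cluster 3 (Il1a, Csf3, Lcn2 and Tnf) 12 and 805, and cluster 8 (Ngp, Camp and Ltf, genes of neutrophil granules) 0 and 64. Nuclear OXPHOS levels were 9074 CPM in Smad3-WT cluster 1, and 6996, 3985 and 9906 CPM in Smad3-KO clusters 1, 3 and 8. Within cluster 1 alone, the Smad3-KO to Smad3-WT ratio was 0.771 (0.726 to 0.819), with 18 of 57 genes lower and 3 higher by over 1.5-fold, against 19.9% and 18.2% of all genes, and a median of 0.803 against 0.995. The share of genes past the fold in cluster 1 was thus nearer to the background than in the whole class. Against Smad3-WT cluster 1, Smad3-KO cluster 3 had a ratio of 0.439 (0.424 to 0.455), with 56 of 62 genes lower, where 44.8% of all genes were, and complex IV at 0.397.

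**Figure D4:**
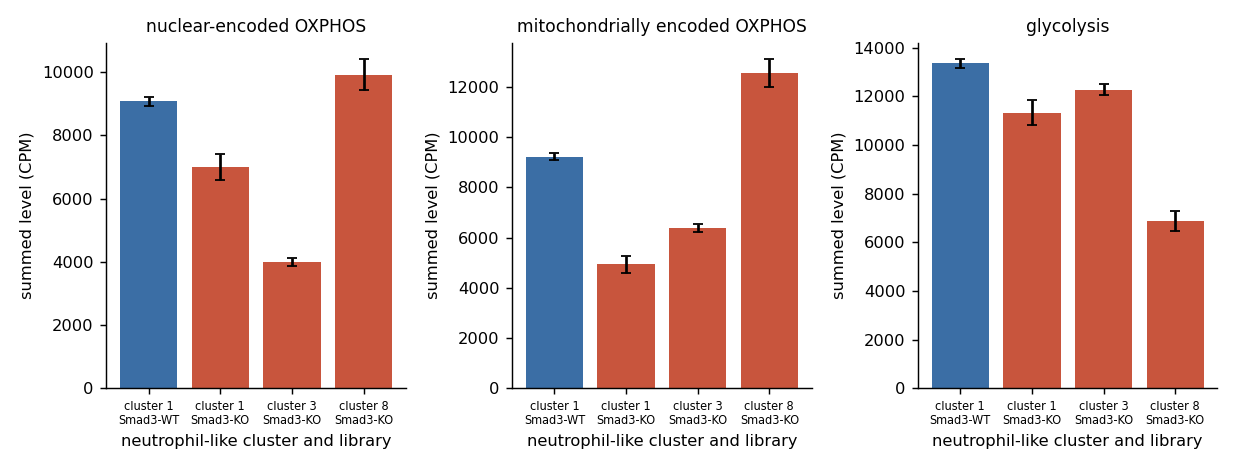
Summed CPM of nuclear OXPHOS, mt- and glycolysis genes in neutrophil-like clusters of each library, with exact 95% Poisson intervals; cluster 3 of Smad3-WT (12 cells) and cluster 8 of Smad3-WT (no cell) are not drawn. Among Smad3-KO clusters the nuclear level ranged from 3985 CPM in cluster 3 to 9906 CPM in cluster 8.

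Among the 3 clusters, the granule cluster 8 had the highest nuclear OXPHOS level in Smad3-KO. Against cluster 3 its nuclear sum was 2.49 times higher (2.34 to 2.64), with 33 of 38 genes higher by over 1.5-fold, where 27.3% of all genes were. Median depth was 1959 UMIs in cluster 8 and 1082 in cluster 3, and its part in these ratios was not tested. Uqcrb, a complex III subunit, stood at 164 against 25.5 CPM, a ratio of 6.43, and Ndufa13 at 189 against 30.4 CPM, a ratio of 6.22. Genes entered on the UMIs of both clusters together, so many entered only with their cluster 8 counts. Uqcrb (26 UMIs in cluster 8 and 26 in cluster 3) and Ndufa13 (30 and 31) were among them. So were Cox7a2l, Atp5a1, Atp5c1, Cox6a1, Uqcr11, Ndufa1, Ndufv3, Ndufb7, Cox5a and Atp5f1, each with under 50 UMIs in cluster 3. Nearest to parity were Ndufa7 at 1.10, Sdhd at 1.13, Uqcrq at 1.20 and Cox8a at 1.39 (1.12 to 1.70). The mt- sum was 1.96 times higher, and the glycolysis sum 0.561 times, at 6890 against 12279 CPM. The granule-stage markers summed to 60420 CPM in cluster 8, with Mpo, Elane and Ctsg, markers of earlier precursors, at 0. Cluster 8 had 64 cells of 1 library, and leaving it out changed the class ratio from 0.558 to 0.487.

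In Smad3-KO, cluster 1 stood 1.76 times above cluster 3 in nuclear OXPHOS (1.64 to 1.88), with 25 of 34 genes higher, where 32.2% of all genes were, and 1 lower, where 18.6% were. The mt- sum went the other way at 0.772, and glycolysis genes were near parity at 0.922. Within cluster 1, beside the summed ratio of 0.771, Sdha had a Smad3-KO to Smad3-WT ratio of 3.21 (1.71 to 5.71) from 16 Smad3-KO UMIs and Atp5k 1.92 (1.11 to 3.16) from 19, while Cox7c had 0.17 (0.05 to 0.40) from 5.

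Macrophage-like cells of the 2 libraries were much closer. The nuclear ratio was 0.937 (0.919 to 0.955), from 22153 and 20746 CPM, with 4 of 82 genes lower and 2 higher by over 1.5-fold, against 16.4% and 22.9% of all genes, and a median of 0.899 against 1.06 over all genes. Uqcrc1, a core protein of complex III, had a ratio of 0.57 (0.41 to 0.77), and Ndufa12 of complex I had 0.56 (0.36 to 0.84). Cox7a1 had 59 and 2 UMIs, a ratio of 0.28 (0.03 to 1.08), Ndufaf2, an assembly factor, had 0.64 from 5 Smad3-KO UMIs, and Ndufv3 had 0.64 (0.52 to 0.79). Highest apart from Cox6a2, described below, were Cox7a2l at 1.68 (1.37 to 2.06), Ndufc2 at 1.39 (1.13 to 1.69), Ndufb5 at 1.38 and Uqcrh at 1.34 (1.18 to 1.51). Cox4i1 stood at 1.01 (0.919 to 1.10), Cox8a at 0.827, Cox7c at 0.821, Atp5e at 0.916, Atp5g2 at 1.25 (1.13 to 1.38) and Atp5g3 at 0.895. By complex the ratios lay between 0.879 for complex II and 0.968 for complex V, and assembly factors stood at 1.28 (1.10 to 1.48). The macrophage markers summed to 10292 CPM in Smad3-WT and 6093 CPM in Smad3-KO macrophage-like cells and the neutrophil markers to 4875 and 7081 CPM, and their part in these ratios was not tested.

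In T or NK-like cells the nuclear ratio was 0.739 (0.718 to 0.760), from 24912 CPM in 62 Smad3-WT cells and 18400 CPM in 464 Smad3-KO cells. Lower by over 1.5-fold were 23 of 74 genes, where 25% of all genes were, and 2 were higher, where 18.4% were. The share of lower genes was thus near the background. In this class the macrophage list reached 2556 CPM in Smad3-WT against 887 CPM in Smad3-KO, and the median depth was 3372 and 1364.5 UMIs. Their part in the ratio was not tested. Complex II stood at 0.618 and complex IV at 0.655, and Sdhd was lowest among the complex II genes at 0.405 (0.243 to 0.680). Dendritic-like cells had a nuclear ratio of 1.08 (1.02 to 1.14) from 29 and 42 cells, with 4 of 31 genes lower and 4 higher, where 25% and 17% of all genes were. Over all cells together the nuclear ratio was 0.653 (0.647 to 0.659), with 49 of 88 genes lower and 4 higher, against 26.3% and 23.2% of all genes, in libraries with unequal class shares.

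Fibroblast-like cells, which the sort was not meant to hold, had a nuclear ratio of 0.783 (0.755 to 0.812) from 46 and 61 cells, with 15 of 64 genes lower and 1 higher, where 18.4% and 16.5% of all genes were. The 1 higher gene was Ndufa4l2, at 2.53 (1.79 to 3.63). The mt- ratio was 0.994 (0.967 to 1.02). LLC carcinoma-like cells were named from marker genes, and their origin in the inoculated line was not tested. They stood at 0.881 (0.831 to 0.933), with 29 of 84 genes lower and 10 higher, where 23.4% and 42.8% of all genes were. There were 32 such cells in Smad3-KO, whose median depth was 646.5 UMIs, while the 406 of Smad3-WT had 13151.

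The mitochondrially encoded genes did not move with the nuclear genes in every class. Their Smad3-KO to Smad3-WT ratio was 0.756 in neutrophil-like cells (0.736 to 0.775), 1.29 in macrophage-like cells (1.27 to 1.31) and 1.41 in T or NK-like cells (1.38 to 1.45), while the nuclear ratio was below 1 in all 3. Without the mitochondrial cap the ratios were 0.523, 1.26 and 1.42. Cells were clustered anew for that setting. Its neutrophil-like class held 31 of 1857 Smad3-WT and 4 of 1093 Smad3-KO cells with 10% or more mitochondrial UMIs. Over all cells the ratio was 1.05 with the cap and 0.910 without it, so its direction rests on the filter. Neutrophil-like mt- RNA was concentrated in few cells: the 5% of cells with the highest mt- share held 39.2% (Smad3-WT) and 46.2% (Smad3-KO) of the class's mt- UMIs, against 8.09% and 7.39% in macrophage-like cells. Neutrophil-like cells with at least 2% mt- UMIs (162 and 63 cells) had macrophage markers at 1368 and 1983 CPM against 722 and 727 CPM in the rest, and the part of other cells' RNA in them was not tested.

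**Figure D5:**
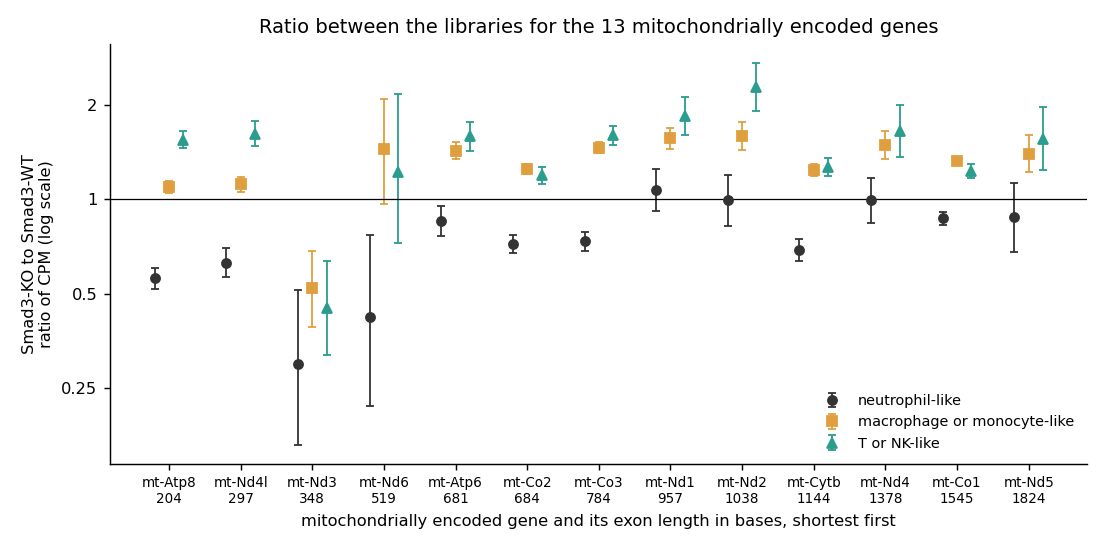
Smad3-KO to Smad3-WT ratio of each of the 13 mt- genes in neutrophil-like, macrophage-like and T or NK-like cells, ordered by exon length, with exact 95% intervals on a log axis. mt-Nd3 has the lowest ratio in each class, at 0.299, 0.522 and 0.450.

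Single mt- genes departed from the sum. mt-Nd3 (M:9459-9806, plus strand, GRCm38), a short complex I gene, counted 72 and 17 UMIs in neutrophil-like cells of Smad3-WT and Smad3-KO, with a ratio of 0.299 (0.165 to 0.512). It was also lowest in macrophage-like cells at 0.522 (0.393 to 0.683), where all the other 12 genes were above 1, in T or NK-like cells at 0.450 (0.319 to 0.637), and in fibroblast-like cells, where it stood at 0.519 (0.331 to 0.802). mt-Nd6, the mt- gene encoded on the minus strand, had 45 and 15 UMIs in neutrophil-like cells, at 0.422 (0.219 to 0.771), and stood at 1.44 and 1.23 in the other 2 classes. Complex I was thus split: mt-Nd1 stood at 1.07, mt-Nd2 at 0.993, mt-Nd4 at 0.994, mt-Nd5 at 0.879 and mt-Nd4l at 0.629 in neutrophil-like cells.

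Of the catalytic subunits of complex IV, mt-Co1 had 4227 and 2905 neutrophil-like UMIs at a ratio of 0.870 (0.830 to 0.912), mt-Co2 stood at 0.721 and mt-Co3 at 0.734. mt-Cytb of complex III stood at 0.690. In complex V, mt-Atp8 stood at 0.561 (0.520 to 0.606) and mt-Atp6 at 0.854 (0.763 to 0.954), although the pair shares 43 bases of a bicistronic transcript. The genes mt-Nd4l and mt-Nd4 share 7 bases, and the part of shared bases in these ratios was not tested. In macrophage-like cells mt-Nd2 was highest at 1.60 (1.44 to 1.77), followed by mt-Nd1 at 1.57, and in T or NK-like cells the same pair led at 2.28 and 1.84. The ratio ran with exon length in neutrophil-like cells with a Spearman rho of 0.731 over 13 genes that share cells and libraries, against 0.478 and 0.231 in the other classes and 0.078 over 67 nuclear genes in neutrophil-like cells. Over all genes with a length it was 0.184, 0.201 and 0.236 in the 3 classes, and the T or NK-like mt- value was close to the last.

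Several subunits of complex IV and complex V exist as a common and a tissue- or oxygen-dependent paralog. Cox6a2, the heart and muscle form of Cox6a1, counted 39 and 111 UMIs in macrophage-like cells of the wild-type and knockout libraries, 8.19 and 196 CPM, a ratio of 23.9 (16.5 to 35.4). In Smad3-KO those UMIs lay in 20 of 177 cells, and 19 of the 20 (95.0%, 75.1 to 99.9, Clopper-Pearson) also held Siglech, a marker of plasmacytoid dendritic cells, against 8 of the 157 others (5.10%). Leaving out cells with Siglech left 8 and 2 UMIs, a ratio of 2.57 (0.266 to 12.9). Nearly all Cox6a2 UMIs of the Smad3-KO class thus lay in Siglech-bearing cells.

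Ndufa4l2, a hypoxia-dependent relative of Ndufa4, was most frequent in fibroblast-like cells, with 147 CPM in Smad3-WT (46 of the library's 83 UMIs, in 9 cells) and 371 CPM in Smad3-KO (125 of 144 UMIs, in 23 cells). LLC carcinoma-like cells held 28 and 18 of its UMIs, macrophage-like cells of Smad3-WT held 9, and neutrophil-like cells held none. Cox4i2, the oxygen-dependent form of Cox4i1, had 13 UMIs in Smad3-KO fibroblast-like cells, 17 in Smad3-WT LLC carcinoma-like cells, of which 10 lay in 1 cell, and 15 in Smad3-WT macrophage-like cells. Cox7a1, whose promoter window is shown above, counted 146 UMIs over all Smad3-WT cells and 2 over all Smad3-KO cells, 12.0 and 0.48 CPM, and 78 of the Smad3-WT UMIs were in LLC carcinoma-like cells. That class held 5002079 UMIs of all genes in Smad3-WT and 55117 in Smad3-KO, so genotype and class share cannot be told apart for Cox7a1 over all cells, and within macrophage-like cells the interval of its ratio spanned 1. Cox6b2 had 18 and 14 UMIs, and Cox7b2 had 2.

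Related genes outside the rule are given beside the share over all genes in neutrophil-like cells, 35.3% lower and 12.9% higher by over 1.5-fold. The assembly genes of complexes IV and V had a summed Smad3-KO to Smad3-WT ratio of 0.495, with 5 of 5 lower by over 1.5-fold, and the citric acid cycle genes 0.694, with 2 of 6 lower. The assembly sum includes Cox17, an abundant gene described below, and its weight in that ratio was not tested. Glycolysis genes were nearer to parity at 0.863, with 2 of 17 lower and 3 higher and a median of 1.02. Cytosolic ribosomal protein genes stood at 0.778, with 28 of 86 lower, near that share, as were the citric acid cycle genes. Cycs, cytochrome c, stood at 1.38 (1.15 to 1.65). Atpif1, the inhibitor of ATP synthase, had 194 and 51 UMIs, a ratio of 0.333 (0.240 to 0.455). In macrophage-like cells the glycolysis genes stood at 0.245 (0.236 to 0.255), with 13 of 17 lower where 16.4% of all genes were, and ribosomal protein genes at 1.33, beside the nuclear OXPHOS ratio of 0.937.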

How the data were processed

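Single-cell 5′ gene expression was measured in 1 library per genotype (10x Genomics). The authors deposited an unnormalized UMI count matrix of both libraries (Cell Ranger on mm10 per the submitters' processing notes). The deposited tables of the authors' average signal per cluster and per library were used only for mapping and checks. They matched the summed counts of the barcode suffixes in 19114 genes, which assigned each suffix to a library. Columns of fold changes and p-values from the authors' own comparisons were not used.

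As in the study, kept cells had 200 genes or more, between 500 and 20000 UMIs, and a mitochondrial share below 10%. Louvain clustering (scanpy 1.11.5, igraph 0.11.9, Python 3.11.15) used 2000 variable genes without the OXPHOS genes, 100 principal components and 15 neighbours, and clusters were named from marker lists. LLC carcinoma-like and fibroblast-like values come from resolution 1.0, where these cells separated. UMIs were summed per library and class as CPM. No test was made, since there was 1 library per group. Ratios have exact binomial and levels exact Poisson 95% intervals (scipy 1.17.1). Genes with at least 50 UMIs over both groups were counted past 1.5-fold after adding 0.5 UMIs. A gene could thus enter through the group where it was higher, and the share over all genes used the same filter. Each UMI tags 1 transcript end, so levels are per molecule. The scripts were tested on simulated data. No doublet caller was run, and leaving out the 5% of cells with most UMIs was an alternative. The 5′ tags do not check the Smad3 deletion.

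The members and lists were chosen with earlier results of these data known. Named were all mt- genes, the 3 members with most UMIs in each complex, the 5 highest and 5 lowest Smad3-KO to Smad3-WT ratios in neutrophil-like and macrophage-like cells, and paralogs. The genes named for the class and cluster contrasts, Cox17, Atpif1, Cycs, Siglech and the shown promoters were chosen after their values were seen, as were the alternatives without shared barcodes, without cluster 8, in cluster 1 alone, without Siglech cells and without neutrophil-like cells of at least 2% mt- UMIs.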

Additional observations from a re-analysis of the deposited data

Results flagged for a closer look

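The Smad3-KO to Smad3-WT ratio pointed in opposite directions between cell classes, and these differences between classes were not tested, since each genotype had 1 library. For the mt- genes the ratio was 0.756 in neutrophil-like cells and 1.29 in macrophage-like, 1.41 in T or NK-like and 1.19 in dendritic-like cells. For the nuclear genes it was 0.558 in neutrophil-like, 0.937 in macrophage-like and 0.739 in T or NK-like cells, against 1.08 in dendritic-like cells.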

How the results depend on the processing

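No paired analysis was possible because each genotype had 1 library and the result comes from no test. Across 12 results and 185 alternatives, 66 values stayed within their interval, 117 moved beyond and 2 reversed direction. The interval was that of counting error for the ratios and a span of 1.5 times for the count. For the member median it was the interval of the summed nuclear ratio, scaled to the median. The 2 that reversed were the mt- ratio over all cells without the mitochondrial cap, and the nuclear ratio in macrophages with totals that left out mt- and ribosomal protein genes. Counting intervals are narrow, so most moves are small, while 5 of the alternatives lay over 1.5 times from the main value. Counts past 1.5-fold under the alternatives are given without the number of genes counted and the share over all genes. Both can differ by setting, so a higher or lower count is not read as a larger or smaller difference. The 42 genes past 1.5-fold were 29 under median-of-ratios scaling. The cause was not tested for any of these. Depth limits genes under 50 UMIs, which were not counted. Below, between-library ratios are Smad3-KO to Smad3-WT, between-class ratios are neutrophil-like to macrophage-like, the member median and the count belong to the nuclear genes of neutrophil-like cells, and neutrophils and macrophages stand for the like-named classes. The set of cells with a neutrophil marker UMI replaces the class and also takes in cells of other classes (2899 and 1605 cells, against 1855 and 1094). With no filter on cells, the nuclear between-library ratio was 0.622 over all cells and 0.904 in macrophages, the mt- between-library ratio was 1.03 over all cells, 0.490 in neutrophils and 1.21 in macrophages, the nuclear between-class ratio was 0.397 in Smad3-WT and 0.252 in Smad3-KO, the mt- between-class ratio was 0.405 in Smad3-WT and 0.164 in Smad3-KO and the member median was 0.613. Without the mitochondrial cap, the nuclear between-library ratio was 0.660 over all cells and 0.593 in neutrophils, the mt- between-library ratio was 0.910 over all cells, 0.523 in neutrophils and 1.26 in macrophages, the nuclear between-class ratio was 0.393 in Smad3-WT, the mt- between-class ratio was 0.437 in Smad3-WT and 0.181 in Smad3-KO and the member median was 0.649. Without the upper UMI limit, the nuclear between-library ratio was 0.617 over all cells and 0.893 in macrophages, the mt- between-library ratio was 1.11 over all cells and 0.779 in neutrophils, the nuclear between-class ratio was 0.390 in Smad3-WT and the mt- between-class ratio was 0.296 in Smad3-WT and 0.178 in Smad3-KO. With at least 500 UMIs and up to 20% mitochondrial UMIs, the nuclear between-library ratio was 0.619 over all cells, 0.521 in neutrophils and 0.890 in macrophages, the mt- between-library ratio was 1.10 over all cells and 0.571 in neutrophils, the mt- between-class ratio was 0.350 in Smad3-WT and 0.157 in Smad3-KO and the member median was 0.536. With totals that left out mt- and ribosomal protein genes, the nuclear between-library ratio was 0.627 over all cells and 1.002 in macrophages, the mt- between-library ratio was 1.01 over all cells and 1.38 in macrophages, the nuclear between-class ratio was 0.357 in Smad3-WT and 0.197 in Smad3-KO and the mt- between-class ratio was 0.281 in Smad3-WT and 0.152 in Smad3-KO. With median-of-ratios scaling, the nuclear between-library ratio was 0.639 over all cells, 0.657 in neutrophils and 0.914 in macrophages, the mt- between-library ratio was 1.03 over all cells, 0.890 in neutrophils and 1.26 in macrophages, the nuclear between-class ratio was 0.375 in Smad3-WT and 0.362 in Smad3-KO, the mt- between-class ratio was 0.295 in Smad3-WT and 0.280 in Smad3-KO and the member median was 0.684. In cells with 500 to 3000 UMIs, the nuclear between-library ratio was 0.837 over all cells, 0.496 in neutrophils and 0.877 in macrophages, the mt- between-library ratio was 1.64 over all cells, 0.651 in neutrophils and 1.44 in macrophages, the nuclear between-class ratio was 0.440 in Smad3-WT, the mt- between-class ratio was 0.277 in Smad3-WT and 0.125 in Smad3-KO and the member median was 0.501. Without the 5% of cells with most UMIs, the nuclear between-library ratio was 0.601 over all cells, 0.498 in neutrophils and 0.878 in macrophages, the mt- between-library ratio was 1.07 over all cells, 0.733 in neutrophils and 1.33 in macrophages, the nuclear between-class ratio was 0.392 in Smad3-WT and 0.222 in Smad3-KO, the mt- between-class ratio was 0.262 in Smad3-WT and 0.144 in Smad3-KO and the member median was 0.503. As means over cells of each cell's share, the nuclear between-library ratio was 0.752 over all cells, 0.531 in neutrophils and 0.897 in macrophages, the mt- between-library ratio was 1.44 over all cells, 0.678 in neutrophils and 1.35 in macrophages, the nuclear between-class ratio was 0.420 in Smad3-WT and the mt- between-class ratio was 0.259 in Smad3-WT and 0.130 in Smad3-KO. At resolution 1.0, the nuclear between-library ratio was 0.588 in neutrophils, the mt- between-library ratio was 0.833 in neutrophils, the nuclear between-class ratio was 0.392 in Smad3-WT, the mt- between-class ratio was 0.289 in Smad3-WT and the member median was 0.610. With 30 principal components, the nuclear between-library ratio was 0.539 in neutrophils, the mt- between-library ratio was 0.631 in neutrophils, the nuclear between-class ratio was 0.394 in Smad3-WT and 0.231 in Smad3-KO, the mt- between-class ratio was 0.309 in Smad3-WT and 0.151 in Smad3-KO and the member median was 0.556. With the members kept in the clustering, the nuclear between-class ratio was 0.3996 in Smad3-WT and the mt- between-class ratio was 0.310 in Smad3-WT. With another random seed, the member median was 0.605. In cells with a UMI of S100a9, S100a8, Csf3r or Il1rn, whatever their class, the mt- between-library ratio was 0.819, the member median was 0.544 and the count of members past 1.5-fold was 74. Without barcode sequences found in both libraries, the nuclear between-library ratio was 0.632 over all cells and 0.914 in macrophages and the mt- between-class ratio was 0.316 in Smad3-WT. In cluster 1 alone, the nuclear between-library ratio was 0.771 in neutrophils, the mt- between-library ratio was 0.535 in neutrophils, the member median was 0.803 and the count of members past 1.5-fold was 21. Without cluster 8, the nuclear between-library ratio was 0.487 in neutrophils, the mt- between-library ratio was 0.674 in neutrophils, the nuclear between-class ratio was 0.212 in Smad3-KO, the mt- between-class ratio was 0.168 in Smad3-KO and the member median was 0.483. Without neutrophil-like cells at or over 2% mt- UMIs, the nuclear between-library ratio was 0.508 in neutrophils, the nuclear between-class ratio was 0.396 in Smad3-WT and 0.215 in Smad3-KO and the member median was 0.514. Without cells with a Siglech UMI, the mt- between-library ratio was 1.21 in macrophages and the mt- between-class ratio was 0.201 in Smad3-KO.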

Other observations

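Cox17 is a copper chaperone for complex IV and lies outside the rule. Unlike nearly all nuclear OXPHOS genes, it made up a larger share of the RNA in neutrophil-like than in macrophage-like cells of both libraries. These are shares and not molecules per cell. The classes differed in depth, and the part of depth in these ratios was not tested. In Smad3-WT it had 2804 UMIs at 1650 CPM in neutrophil-like and 2010 UMIs at 422 CPM in macrophage-like cells, a ratio of 3.91 (3.69 to 4.14). In Smad3-KO the values were 1109 UMIs at 826 CPM and 173 UMIs at 305 CPM, a ratio of 2.71 (2.30 to 3.19). It was chosen after its values were seen, and the median of the list of assembly genes of complexes IV and V was 0.418 and 0.261.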
